A study of Rattus norvegicus with 8 samples.

Results

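Bnip3, Bnip3l, Ddit4, Ankrd37, Car9 and Ndrg1 are known targets of the hypoxia-inducible factors (HIFs) that act in mitophagy and cell stress, and were followed here in the lungs of rats held at simulated high altitude. They were found by matching the gene name of each non-control probe, ignoring case and a "predicted" ending, to these 6 symbols. Of the 6 genes, 5 had a probe by this rule, with 6 probes of the 41012 on the array, and Ankrd37 had none. Rats had been given cobalt (12.5 mg per kg body weight) or normal saline for 7 days, and were then exposed to hypobaric hypoxia at 30000 ft for 6, 12, 24 or 48 h. Each of the 8 combinations was 1 two-colour array, which set lung RNA after hypoxia against lung RNA of the same pretreatment at 0 h of hypoxia. The 4 arrays of a pretreatment name the same 0 h RNA, and the labels give no strain, sex, age or number of animals. Hypoxia RNA carried Cy3 on the 4 cobalt arrays, which share a slide and a scan day, and Cy5 on the 4 saline arrays, which share another slide and another scan day. Effects of pretreatment, of slide, of scan day and of dye orientation thus cannot be told apart in this design.

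HIFs are transcription factors whose alpha subunits are destroyed when oxygen is plentiful, after hydroxylation by iron-dependent enzymes, and accumulate when oxygen is scarce. Cobalt interferes with these hydroxylases and is used to mimic hypoxia. Bnip3 and its relative Bnip3l (also called NIX) encode proteins of the outer mitochondrial membrane that recruit the autophagy machinery through LC3-family proteins, so that mitochondria are removed. Bnip3l is best known for clearing mitochondria from maturing red blood cells. Ddit4 (REDD1) encodes an inhibitor of the growth kinase complex mTORC1 and also responds to DNA damage, glucocorticoids and the integrated stress response. Car9 encodes a carbonic anhydrase on the cell surface that handles acid made by hypoxic cells, and Ndrg1 a stress-responsive cytoplasmic protein. These roles come largely from human and mouse cells.

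The values of each gene rest on the oligonucleotides below, which are shown because a signal here is the hybridization of RNA to that stretch alone. Each has 60 bases and is given 5′ to 3′ as deposited, with the rn3 coordinates from the array files. No annotation of that build was used, so the exon or untranslated region under a probe is not given. The Bnip3 probe lies at chr1:198833427-198833486 on the minus strand and the Bnip3l probe at chr15:46532461-46532520, also minus. The Ddit4 probe lies at chr20:27267323-27267382 on the minus strand, and the Car9 probe at chr5:59991572-59991631 on the plus strand. The brighter Ndrg1 probe is at chr7:104337128-104337187 and the dimmer one at chr7:104351690-104352509, both minus. The dimmer one spans 820 bases of genome, more than its own length.
Bnip3, A_44_P472442: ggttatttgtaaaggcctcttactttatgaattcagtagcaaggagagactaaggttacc
Bnip3l, A_43_P13090: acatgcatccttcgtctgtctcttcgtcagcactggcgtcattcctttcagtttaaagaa
Ddit4, A_44_P556895: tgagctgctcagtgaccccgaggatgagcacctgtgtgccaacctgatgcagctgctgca
Car9, A_44_P246105: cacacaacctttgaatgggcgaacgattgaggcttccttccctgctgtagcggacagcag
Ndrg1, A_44_P425380: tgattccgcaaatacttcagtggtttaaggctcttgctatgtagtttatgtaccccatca
Ndrg1, A_44_P229800: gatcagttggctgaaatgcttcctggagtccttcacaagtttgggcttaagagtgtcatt
The longest run of bases that any of these probes shares with a probe of another gene is 13 to 15 bases. All 6 probes were well above background in both channels of all 8 arrays, and none was saturated.

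HIFs bind DNA at short motifs with the core letters ACGTG or GCGTG. RefSeq promoter windows of the GRCr8 build, 250 bases before to 50 bases after a gene's start, were found for 4 of the 6 genes, and both motifs were searched on both strands. Of 33469 rat promoters of that length, 19.3% held ACGTG, 29.7% held GCGTG and 41.6% held either. The promoters of Bnip3 (chr1:203154913-203155212, minus strand) and Ddit4 (chr20:28436988-28437287, minus strand) are printed because these genes gave the largest differences below. Capitals mark the motifs, which read CACGT or CACGC where the match is on the other strand.
Bnip3: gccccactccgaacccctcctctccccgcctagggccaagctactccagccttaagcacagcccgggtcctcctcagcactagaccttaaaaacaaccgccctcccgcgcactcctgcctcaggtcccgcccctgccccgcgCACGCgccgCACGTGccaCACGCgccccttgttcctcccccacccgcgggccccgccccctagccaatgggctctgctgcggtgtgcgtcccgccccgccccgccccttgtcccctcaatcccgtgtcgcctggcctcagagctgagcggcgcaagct
Ddit4: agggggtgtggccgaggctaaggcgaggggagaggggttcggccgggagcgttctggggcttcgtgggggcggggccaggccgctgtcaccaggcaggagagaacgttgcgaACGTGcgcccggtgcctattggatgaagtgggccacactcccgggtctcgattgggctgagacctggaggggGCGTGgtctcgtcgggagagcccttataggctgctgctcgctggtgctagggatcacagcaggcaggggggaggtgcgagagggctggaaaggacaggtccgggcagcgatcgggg
In the Bnip3 window, a CACGTG, which holds ACGTG once on each strand, lay at -99 to -94 from the start, between a pair of GCGTG matches at -108 to -104 and at -90 to -86. The Ddit4 window held 1 ACGTG at -138 to -134 and 1 GCGTG at -66 to -62. Car9 had 1 ACGTG match, just after the start at 2 to 6, and Ankrd37 had 4 matches of ACGTG and 1 of GCGTG. A match is a description of these letters and not a measured binding site.

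The arrays were of like quality. Median signals were 72.3 to 89.8 scanner units in green and 106.3 to 154.9 in red, and 56.5% to 65.7% of green and 62.1% to 71.1% of red signals were well above background. Log2 ratios over the 28440 probes kept by the filter on dim probes correlated at 0.406 to 0.753 between cobalt arrays, at 0.569 to 0.711 between saline arrays and at -0.099 to 0.273 across the pretreatments. All 8 lung epithelial marker genes (among them Sftpc and Ager) were well above background in every channel of these lung samples. Ratios below are log2 of hypoxia over 0 h after loess normalization, given with the standard error (SE). A gene was called when limma's moderated test gave a Benjamini-Hochberg adjusted p under 0.05 over the 24161 genes tested. Since each group held 1 array, the spread behind these p-values is that between arrays and durations within a pretreatment, and the spread of the 0 h RNA does not enter them.

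Bnip3 was the member that rose after loess, in both pretreatments and on every array. Its log2 ratios were 1.42 at 6 h, 0.90 at 12 h, 1.22 at 24 h and 0.74 at 48 h in cobalt rats. In saline rats they were 2.25 at 6 h, 1.80 at 12 h, 1.49 at 24 h and 1.13 at 48 h. All 8 ratios lay above 0, which was true of 6.75% of all genes, and at each duration the saline array was the higher one, although the ranges of the pretreatments overlapped. In cobalt rats the channel levels (log2 scanner units) were 11.74, 10.99, 11.59 and 10.80 after 6, 12, 24 and 48 h of hypoxia, against 10.33, 10.09, 10.38 and 10.06 in the 0 h channel of the same arrays. In saline rats they were 12.44, 11.83, 11.56 and 11.40 after hypoxia, against 10.19, 10.03, 10.07 and 10.27 at 0 h. The hypoxia and 0 h levels did not overlap in either pretreatment, but the share of all genes with such a gap was not counted. The 0 h levels averaged 10.21 ± 0.16 in cobalt and 10.14 ± 0.11 in saline arrays (SD, n = 4 arrays each, with the same RNA label within a pretreatment). These 0 h values sit in opposite dyes. With median centring in place of loess, the Bnip3 ratios ran from -0.17 to 0.50 on cobalt arrays and from 2.01 to 3.26 on saline arrays.

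**Figure D1:**
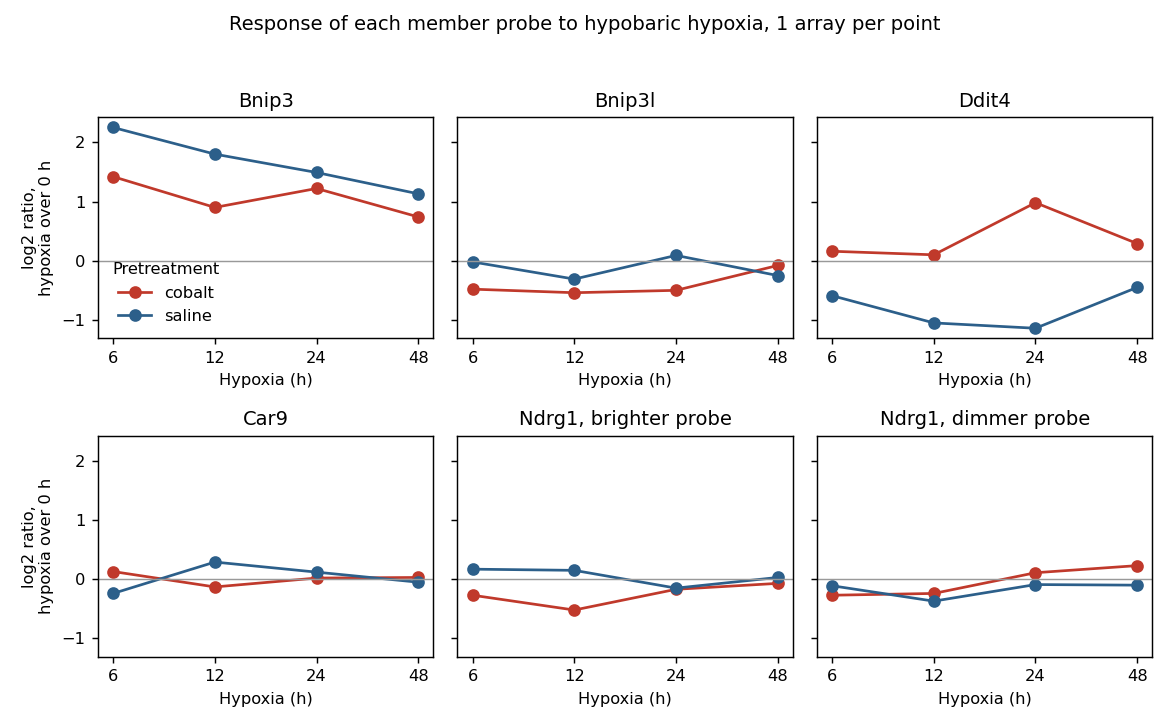
Log2 ratio of hypoxia over 0 h after loess (vertical axis) for each probe against hours of hypoxia (horizontal axis, 6, 12, 24 and 48 h), 1 array per point, cobalt in red and saline in blue. Bnip3 is above 0 on all 8 arrays (0.74 to 2.25), Ddit4 is split by pretreatment, and Car9 and both Ndrg1 probes stay near 0.

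Averaged over the pretreatments, Bnip3 rose by 1.37 ± 0.12 (2.58-fold, 95% interval 1.11 to 1.63, adjusted p = 8.66e-05), the 56th highest estimate of the 24161 genes. In the average, 31.9% of all genes were called (15.7% higher and 16.3% lower), and of the 5 measured members 1 was called higher and 1 lower. Within cobalt rats Bnip3 rose by 1.07 ± 0.17 (2.10-fold, adjusted p = 0.00289). There 20.8% of all genes were called (8.53% higher and 12.3% lower), as were 1 member higher and 1 lower. With median centring in place of loess the cobalt value was 0.10 (adjusted p = 0.629), where the median of all genes was -0.492. Within saline rats it rose by 1.67 ± 0.17 (3.18-fold, adjusted p = 0.00013). There 40.1% of all genes were called (21.8% higher and 18.3% lower), and again 1 member higher and 1 lower. In whole lung, more RNA per cell and more cells that hold it cannot be told apart.

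The Bnip3 estimate was smaller in cobalt than in saline rats, but the difference did not pass the test. The cobalt response minus the saline response was -0.60 ± 0.24 (95% interval -1.13 to -0.07, adjusted p = 0.0813), in a comparison that called 30.1% of all genes (12.7% higher and 17.4% lower) and 1 of the 5 members, Ddit4, as higher. With duration as a factor, which compares the cobalt and saline array of each duration, the difference was -0.60 ± 0.14 and passed (adjusted p = 0.0197). It also passed without the saline 48 h array, at -0.78 (adjusted p = 0.0302). With median centring it was -2.41 (adjusted p = 1.02e-05), where the median of all genes was itself -0.779. Cardiac muscle markers, whose tissue also expresses Bnip3, had median ratios of 0.01, 0.04, -0.02 and -0.11 in cobalt rats and 0.30, 1.71, 0.19 and 2.54 in saline rats at 6, 12, 24 and 48 h. Of 7 cardiac markers 6 were tested, of which 1 was called higher in cobalt rats and 6 in saline rats, beside 8.53% and 21.8% of all genes. From 3 to 6 of the cardiac markers were well above background in a given channel. Their mean log2 level was 7.57 to 8.11 in cobalt and 7.89 to 10.38 in saline hypoxia channels, against 7.81 to 7.89 and 7.55 to 8.11 at 0 h. The Bnip3 ratio was highest on the saline 6 h array, on which the cardiac median was 0.30, and lowest among saline arrays at 48 h, on which that median was 2.54. The part of cardiac muscle RNA in the Bnip3 values was not tested.

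Most smooth muscle markers rose alongside Bnip3 in both pretreatments. Their median ratios were 1.55, 1.91, 2.13 and 1.64 in cobalt rats and 1.27, 0.65, 0.88 and 1.37 in saline rats at 6, 12, 24 and 48 h, so they were above 0 on all 8 arrays. Of 7 listed genes 6 were tested, of which 6 were called higher in cobalt rats, beside 8.53% of all genes. In saline rats 5 were called higher and 1 lower, beside 21.8% and 18.3% of all genes. Desmin (Des) rose by 2.02 ± 0.08 in the average (adjusted p = 9.03e-07) and the actin gene Actg2 by 1.76 ± 0.08 (adjusted p = 3.14e-06). The mean log2 level of the 6 was 12.47 to 13.07 in cobalt and 11.59 to 12.12 in saline hypoxia channels, against 10.90 to 11.04 and 10.91 to 11.01 at 0 h, and all 6 were well above background in each channel. In the cobalt response minus the saline response, 5 of the 6 were called higher, beside 12.7% of all genes, while the Bnip3 estimate was negative. The part of smooth muscle RNA in the Bnip3 values was not tested.

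Bnip3l did not share this rise. Its log2 ratios were -0.48, -0.54, -0.50 and -0.08 in cobalt rats and -0.02, -0.31, 0.09 and -0.25 in saline rats at 6, 12, 24 and 48 h. Only the saline 24 h array was above 0, and the pretreatments overlapped through the cobalt 48 h array. Channel levels averaged 14.27 ± 0.19 after hypoxia and 14.67 ± 0.07 at 0 h on the cobalt arrays, without overlap, and 13.69 ± 0.22 after hypoxia and 13.81 ± 0.08 at 0 h on the saline arrays, with overlap (log2 scanner units, SD, n = 4 arrays each). The share of all genes without overlap of levels was not counted. The average fell by 0.26 on the log2 scale (SE 0.07, 0.834-fold, adjusted p = 0.0181). This call was lost without the cobalt 12 h array (-0.24, adjusted p = 0.0555) or the cobalt 24 h array (-0.25, adjusted p = 0.0553).

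Within cobalt rats Bnip3l fell by 0.40 (SE 0.10, 0.757-fold, adjusted p = 0.0197). That call did not hold without the 6 h (-0.37, adjusted p = 0.0736), 12 h (-0.35, adjusted p = 0.0946) or 24 h array (-0.37, adjusted p = 0.0887). In saline rats the estimate was -0.12 ± 0.10 (adjusted p = 0.338), and with median centring it turned to 1.10. The difference between the responses, -0.28 ± 0.14, did not pass either (adjusted p = 0.162, 95% interval -0.59 to 0.04). With median centring it was -2.71 (adjusted p = 1.52e-07), where the median of all genes was -0.779.

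Erythroid markers were set beside Bnip3l because its protein acts in maturing red cells. Their median ratios were -0.50, -0.53, 0.15 and 2.20 in cobalt rats and -0.50, 0.28, 0.99 and -0.20 in saline rats at 6, 12, 24 and 48 h, over 6 tested of 9 listed genes, none of which was called in any of the comparisons. In each pretreatment Bnip3l was highest on the array with the highest erythroid median, 48 h for cobalt and 24 h for saline. The mean log2 level of these markers was 8.82 to 11.7 in cobalt and 8.20 to 9.81 in saline hypoxia channels, against 9.31 to 9.51 and 8.64 to 8.85 at 0 h. At least 5 of the 6 were well above background in each channel. Their part in the Bnip3l values was not tested.

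Ddit4, the mTORC1 inhibitor, had the largest difference between the pretreatments of the 5 members after loess. Its log2 ratios in cobalt rats were 0.16, 0.10, 0.98 and 0.29 at 6, 12, 24 and 48 h. In saline rats they were -0.59, -1.05, -1.14 and -0.45. All 4 cobalt arrays were above 0 and all 4 saline arrays below it, so that the pretreatments did not overlap, which was also true of 31.9% of all genes. The cobalt 24 h array was the highest and the saline 24 h array the lowest. Channel levels averaged 9.19 ± 0.39 after hypoxia and 8.80 ± 0.13 at 0 h on the cobalt arrays, and 8.03 ± 0.27 after hypoxia and 8.84 ± 0.15 at 0 h on the saline arrays (log2 scanner units, SD, n = 4 arrays each).

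The cobalt response of Ddit4 exceeded its saline response by 1.19 ± 0.23 (2.28-fold, 95% interval 0.68 to 1.70, adjusted p = 0.00448). This comparison called 30.1% of all genes, 12.7% as higher. With any 1 array left out the difference lay between 0.99 and 1.31. With median centring in place of loess it was 0.00 (adjusted p = 0.993), where the median of all genes was -0.779. In saline rats Ddit4 fell by 0.81 (SE 0.16, 0.571-fold, adjusted p = 0.0037), and with median centring the value was -0.42 (adjusted p = 0.0725). In cobalt rats the estimate of 0.38 ± 0.16 did not pass (adjusted p = 0.123), was 0.18 without the 24 h array, and turned to -0.41 with median centring. The average was -0.21 ± 0.11 (adjusted p = 0.18), and it passed as lower without the cobalt 24 h array (-0.31, adjusted p = 0.0465) and with median centring (-0.41, adjusted p = 0.0235).

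Lung epithelial markers are set beside Ddit4 because most of them were also lower in saline rats. Their median ratios were 0.12, 0.04, 0.21 and 0.00 in cobalt rats and -0.59, -1.29, -0.88 and -0.74 in saline rats at 6, 12, 24 and 48 h. Of the 8 genes, 3 were called higher and 1 lower in cobalt rats, beside 8.53% and 12.3% of all genes. In saline rats 1 was called higher and 7 lower, beside 21.8% and 18.3% of all genes. The mean log2 level of the 8 genes was 14.46 to 14.67 in cobalt and 13.67 to 14.20 in saline hypoxia channels, against 14.39 to 14.44 and 14.62 to 14.82 at 0 h. Endothelial markers were split likewise, with median ratios of -0.01, -0.05, 0.04 and 0.11 in cobalt rats and -0.54, -0.77, -0.31 and -0.89 in saline rats. Of these 5 genes 0 were called in cobalt rats, beside 20.8% of all genes. In saline rats 3 were called lower, beside 18.3% of all genes, and 2 were called higher in the difference, beside 12.7%. The mean log2 level of the 5 genes was 11.34 to 11.41 in cobalt and 10.95 to 11.27 in saline hypoxia channels, against 11.35 to 11.50 and 11.55 to 11.72 at 0 h. The part of either marker set in the Ddit4 values was not tested.

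Car9, the hypoxia-linked carbonic anhydrase, showed no detectable response. Its log2 ratios were 0.13, -0.13, 0.02 and 0.03 in cobalt rats and -0.24, 0.29, 0.12 and -0.05 in saline rats at 6, 12, 24 and 48 h. The values scattered around 0 and the pretreatments overlapped. The average was 0.02 ± 0.07 with a 95% interval of -0.13 to 0.17 (adjusted p = 0.832). The cobalt estimate was 0.01 ± 0.09 and the saline estimate 0.03 ± 0.09. The difference between them was -0.01 ± 0.13 (95% interval -0.31 to 0.28, adjusted p = 0.945). With median centring it was -0.62 (adjusted p = 0.00139), where the median of all genes was -0.779. Mean signals were 94.73 to 122.4 scanner units in hypoxia and 227.4 to 237.9 in 0 h channels on cobalt arrays, and 249.7 to 374.1 in hypoxia and 151.6 to 208.2 in 0 h channels on saline arrays, so the red channel was the brighter one on all 8 arrays. At such signals the offset of 50 units added in background correction draws ratios toward 0. Without this offset, limma gave an average of 0.06 ± 0.09 from the software's log ratio (adjusted p = 0.616). It gave 0.04 ± 0.07 from signals without background subtraction (adjusted p = 0.698). Those signals keep the local background in both channels, which also draws ratios toward 0. This second value therefore cannot show what the ratio would be without such a pull.

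Ndrg1 was measured by 2 probes, of which the brighter stood for the gene. The brighter probe gave -0.27, -0.52, -0.17 and -0.07 in cobalt rats and 0.17, 0.15, -0.15 and 0.03 in saline rats at 6, 12, 24 and 48 h. All 4 cobalt arrays were below 0 and 3 of the 4 saline arrays above it, and the saline 24 h array overlapped with the cobalt range. The dimmer probe gave -0.27, -0.24, 0.11 and 0.23 in cobalt rats and -0.11, -0.37, -0.09 and -0.10 in saline rats. The probes thus disagreed in sign at 24 and 48 h in cobalt rats and at 6, 12 and 48 h in saline rats. Both gave an average of -0.10 ± 0.06.

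After loess no comparison called Ndrg1, while median centring called it in 4. It was then lower in the average (-0.26, adjusted p = 0.0259) and in cobalt rats (-1.17, adjusted p = 9.3e-06), higher in saline rats (0.64, adjusted p = 0.000875), and lower in the difference (-1.81, adjusted p = 3.02e-06). The medians of all genes under median centring were -0.012, -0.492, 0.279 and -0.779, in the same order. For the brighter probe the adjusted p of the average was 0.249. The cobalt estimate was -0.26 ± 0.09 (adjusted p = 0.0741) and the saline estimate 0.05 ± 0.09 (adjusted p = 0.687). The difference of the brighter probe was -0.31 ± 0.13 (adjusted p = 0.0978, 95% interval -0.60 to -0.02). The difference of the dimmer probe had the opposite sign, at 0.12 ± 0.13 (adjusted p = 0.495).

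**Figure D2:**
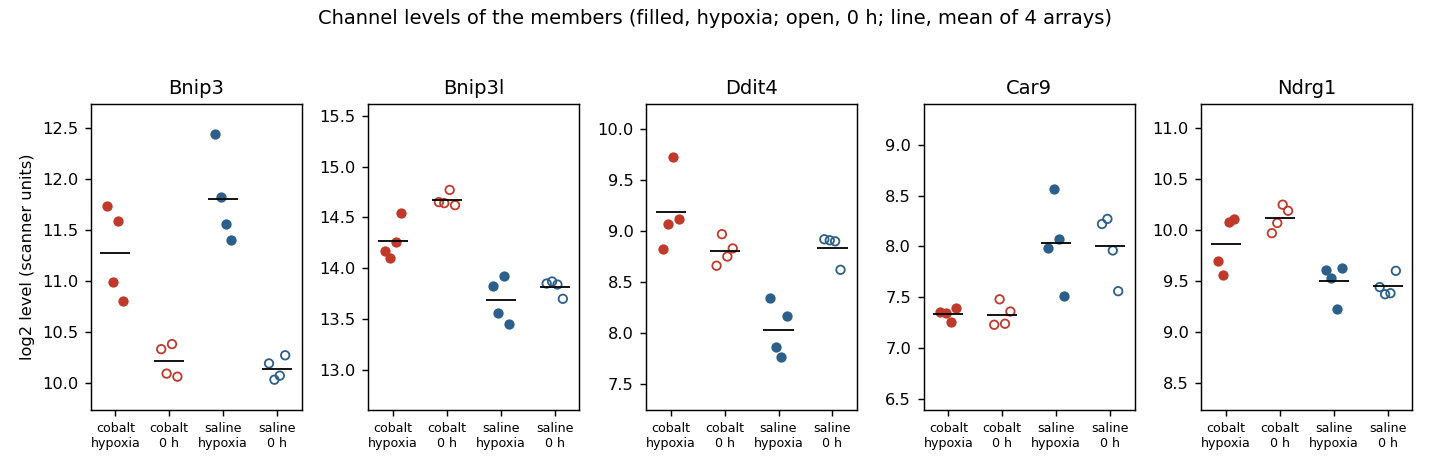
Log2 channel level in scanner units (vertical axis, same span in each panel) for the 5 genes, with filled points for hypoxia and open points for 0 h, cobalt in red and saline in blue, and a line at the mean of 4 arrays. Hypoxia and 0 h points are apart in both pretreatments for Bnip3, a trait not counted over all genes. The Ddit4 points lie lower after hypoxia in saline but not in cobalt rats. Dyes are opposite between the pretreatments, so colours are not to be compared in height.

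The time course was examined as 24 and 48 h against 6 and 12 h, in which the shared 0 h RNA, slide and dye cancel within a pretreatment. Bnip3 had the lowest estimate of the members, -0.45 ± 0.18 in the average of pretreatments (adjusted p = 0.371). Its mean ratio was 0.98 at the late and 1.16 at the early durations in cobalt rats, and 1.31 at the late and 2.02 at the early durations in saline rats. Ddit4 gave 0.27 ± 0.22, Bnip3l 0.16 ± 0.14, Car9 0.02 ± 0.14 and Ndrg1 0.02 ± 0.10. None of these passed, and limma called 0% of all genes, although 3109 genes had an unadjusted p under 0.05. In the difference of the time course between cobalt and saline rats it also called 0%, with 1313 genes at an unadjusted p under 0.05. The members' estimates there were 0.53 ± 0.37 for Bnip3, 0.50 ± 0.21 for Ndrg1 (adjusted p = 0.917), 0.48 ± 0.43 for Ddit4, 0.14 ± 0.28 for Bnip3l and 0.02 ± 0.29 for Car9.

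The normalization decided several values within a pretreatment, where the dye does not cancel. For Bnip3l, the raw mean signal was 7142 to 13390 scanner units in hypoxia (green) and 48140 to 57450 in 0 h channels (red) on cobalt arrays. On saline arrays it was 19230 to 26530 in hypoxia (red) and 7802 to 8984 in 0 h channels (green), so that red was brighter on all 8 arrays. Loess fits each array's dye difference over intensity, and median centring removes a constant only. With median centring the median ratio of all genes was -0.492 in cobalt rats, 0.279 in saline rats and -0.779 in the difference. Beside that shift, the cobalt estimate of Bnip3l was -1.60 and the saline estimate of Bnip3 was 2.51. Car9 was then called lower in cobalt rats (-0.29, adjusted p = 0.014) and higher in saline rats (0.32, adjusted p = 0.0119), with signs that follow the shift of all genes. In the average over opposite dyes, median centring gave 1.30 for Bnip3, -0.25 for Bnip3l and 0.02 for Car9, against 1.37, -0.26 and 0.02 with loess. It moved Ddit4 to -0.41, against -0.21 with loess, and Ndrg1 to -0.26, against -0.10, and both then passed as lower.

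**Figure D3:**
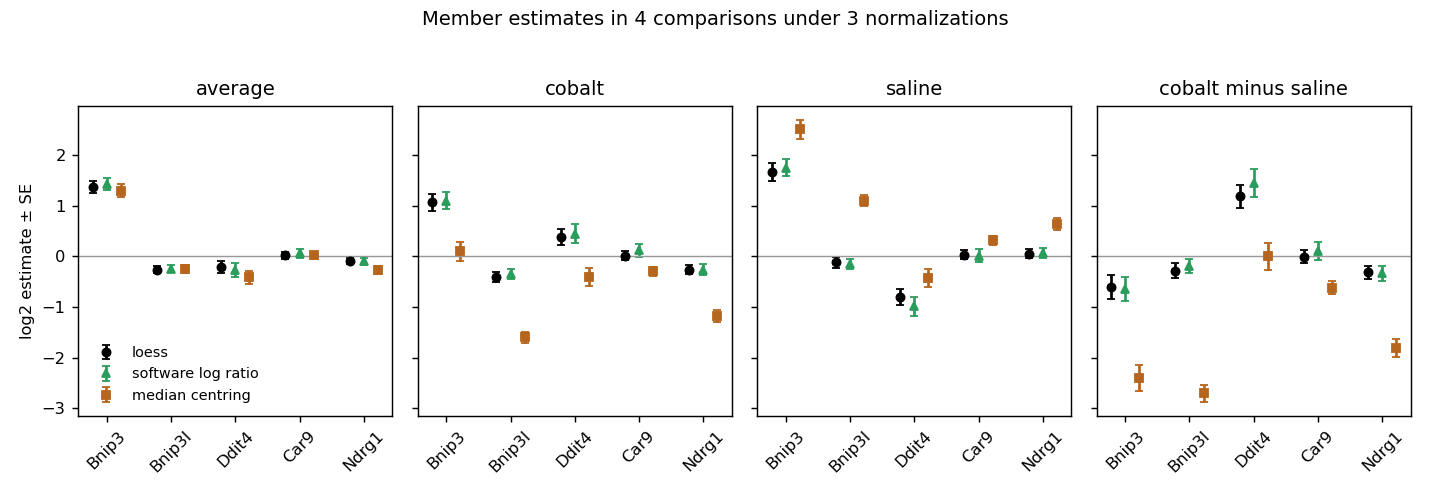
Log2 estimate with its SE (vertical axis) for the 5 genes in 4 comparisons, after loess (black circles), from the software's log ratio (green triangles) and after median centring (brown squares). Bnip3 is between 1.30 and 1.43 in the average under all 3, while cobalt, saline and difference values move with median centring.

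Genes of the same pathways were counted in the average of pretreatments, in which the median over all genes was -0.001 and 15.7% of all genes were called higher and 16.3% lower. Of 29 tested mitophagy and autophagy genes, 2 were called higher and 5 lower, with a median of -0.06. The autophagy receptor gene Nbr1 averaged -0.36 ± 0.07 (adjusted p = 0.00381), with 0.01 in cobalt rats (adjusted p = 0.974) and -0.72 in saline rats (adjusted p = 0.000478), a difference of 0.73 ± 0.13 (adjusted p = 0.00383). The mitophagy receptor gene Fundc1, which like Bnip3 binds LC3, fell by 0.32 in the average (SE 0.08, adjusted p = 0.0127). It was -0.40 in cobalt rats (adjusted p = 0.028) and -0.23 in saline rats (adjusted p = 0.122). The receptor gene Tax1bp1 fell by 0.22 in the average (SE 0.05, adjusted p = 0.00991), with -0.08 in cobalt rats (adjusted p = 0.502) and -0.37 in saline rats (adjusted p = 0.00349). Bcl2l1, an anti-apoptotic BCL2 relative, rose by 0.48 ± 0.11 in the average (adjusted p = 0.0113), with 0.52 in cobalt rats (adjusted p = 0.0449) and 0.43 in saline rats (adjusted p = 0.0564). In cobalt rats 4 of the 29 were called higher and 3 lower, beside 8.53% and 12.3% of all genes. In saline rats 1 was called higher and 9 lower, beside 21.8% and 18.3% of all genes.

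Around Ddit4, 20 genes of mTORC1 control were tested, of which 1 was called higher and 5 lower, with a median of -0.06, where 31.9% of all genes were called in either direction. The sestrin genes Sesn2 and Sesn1, whose proteins restrain mTORC1, fell by 0.46 (SE 0.06, adjusted p = 0.000982) and by 0.43 (SE 0.08, adjusted p = 0.0048). Eif4ebp1, a translation repressor that mTORC1 phosphorylates, rose by 0.37 ± 0.06 (adjusted p = 0.00184). Txnip, which limits glucose uptake, was -1.04 in cobalt rats (adjusted p = 0.000764) and 0.29 in saline rats (adjusted p = 0.0792), a difference of -1.33 ± 0.17 (adjusted p = 0.000655).

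Ddit4 is also a target of other stress pathways. The counts below are for the average, in which 15.7% of all genes were called higher and 16.3% lower. Of 17 genes of the integrated stress response, 6 were called higher and 3 lower, with a median of 0.07. Of its transcription factor genes, Atf3 averaged 0.58 ± 0.13 (adjusted p = 0.00731), with 0.87 in cobalt rats (adjusted p = 0.00867) and 0.28 in saline rats (adjusted p = 0.228). Atf5 was 1.00 in cobalt rats (adjusted p = 0.000543) and -0.09 in saline rats (adjusted p = 0.513), a difference of 1.09 ± 0.15 (adjusted p = 0.000959). Of 13 glucocorticoid-responsive genes 4 were called higher and 3 lower, with a median of 0.19. Among them the kinase gene Sgk1 rose by 1.43 ± 0.10 (adjusted p = 3.37e-05), while Nr3c1, the glucocorticoid receptor gene, fell by 0.46 (SE 0.07, adjusted p = 0.00108). The phosphatase gene Dusp1 was 0.05 in cobalt rats and -1.39 in saline rats (difference 1.44 ± 0.21, adjusted p = 0.00136). Of 9 genes of p53 and hypoxia-linked stress, 3 were called higher and 1 lower, with a median of 0.16.

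Of 16 tested genes of carbonic anhydrases and pH regulation, the group of Car9, 4 were called higher and 3 lower, with a median of 0.01, beside 15.7% and 16.3% of all genes. Car4, a carbonic anhydrase on the surface of lung capillary endothelium, fell by 1.04 (SE 0.12, adjusted p = 0.000322). Slc16a3, the lactate exporter MCT4, rose by 0.98 ± 0.24 (adjusted p = 0.0117). Of the 3 relatives of Ndrg1, Ndrg2 fell by 0.25 in the average (SE 0.07, adjusted p = 0.0307). It was -0.65 in cobalt rats (adjusted p = 0.00339) and 0.16 in saline rats (adjusted p = 0.265), a difference of -0.81 ± 0.15 (adjusted p = 0.00387). Ndrg3 and Ndrg4 did not pass, at -0.10 ± 0.06 and 0.13 ± 0.10.

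Other HIF targets were counted beside the members. In the average, 15.7% of all genes were called higher and 16.3% lower. Of 30 other targets tested, 17 were called higher and 3 lower, with a median of 0.34. Of the 5 members 1 was called higher (Bnip3) and 1 lower (Bnip3l), which is close to the shares of all genes. P4ha2 and Plod2, which encode collagen-modifying hydroxylases, rose by 1.10 ± 0.07 and 1.07 ± 0.10, and Ero1a, for an oxidase of the endoplasmic reticulum, by 0.59 ± 0.07. Vegfa, for the angiogenic growth factor VEGF-A, fell by 0.72 (SE 0.07, adjusted p = 0.000126), with 0.05 in cobalt and -1.49 in saline rats. The order of the pretreatments differed between these genes. P4ha2 gave 0.87 in cobalt and 1.32 in saline rats (difference -0.45 ± 0.14, adjusted p = 0.0332), and Plod2 gave 1.34 in cobalt and 0.80 in saline rats (difference 0.54 ± 0.21, adjusted p = 0.0755). Of the 30, 6 were called higher and 3 lower in the cobalt response minus the saline response, with a median of 0.08, beside 12.7% and 17.4% of all genes. Of 11 genes of HIF subunits and oxygen sensors, 2 were called higher and 2 lower. Epas1, the gene of HIF-2 alpha, fell by 1.09 (SE 0.07, adjusted p = 1.87e-05), with -0.33 in cobalt and -1.85 in saline rats (difference 1.52 ± 0.14, adjusted p = 0.00017). Hif3a, the HIF-3 alpha gene, fell by 0.15 (SE 0.05, adjusted p = 0.0476), with 0.06 in cobalt and -0.36 in saline rats. The HIF-1 alpha gene Hif1a rose by 0.39 ± 0.08 (adjusted p = 0.00727), and the HIF hydroxylase gene Egln3, itself a HIF target, by 0.32 ± 0.06 (adjusted p = 0.00524). Egln3 was 0.19 in cobalt rats (adjusted p = 0.173) and 0.45 in saline rats (adjusted p = 0.00406).

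**Figure D4:**
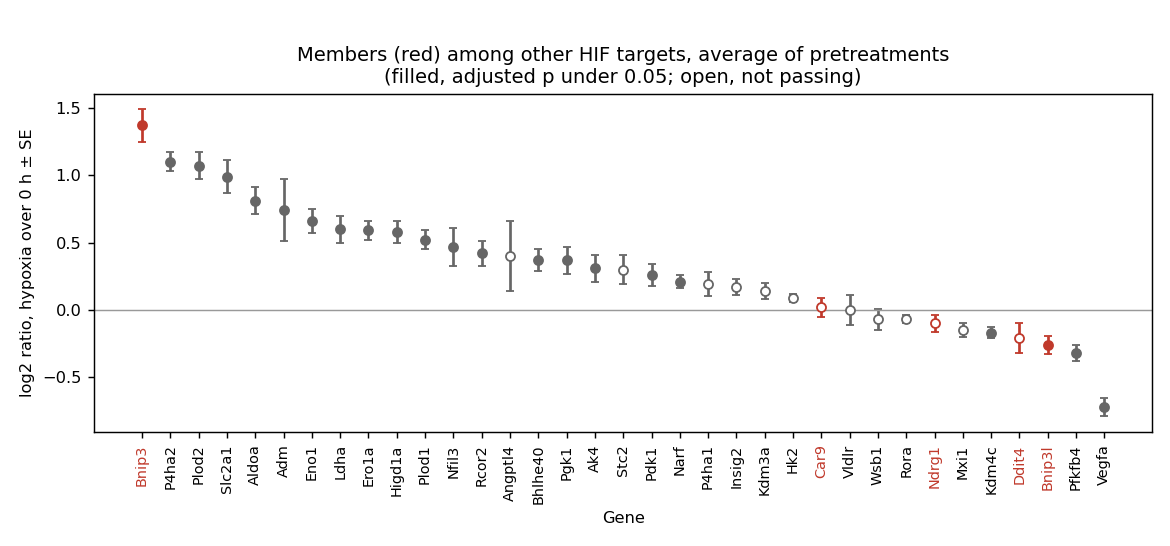
Log2 ratio of hypoxia over 0 h in the average of pretreatments with its SE (vertical axis) for the 5 measured members (red) and 30 other HIF targets (grey), ordered by estimate, filled where the adjusted p is under 0.05. Bnip3 (1.37) is the highest of these genes, and Car9, Ndrg1, Ddit4 and Bnip3l lie in its lower part.

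The genes whose ratios over the 8 arrays were most like each member were found by Pearson correlation, as a description of 8 points. The points share a 0 h RNA label, slide and dye orientation only within a pretreatment. A split between the pretreatments therefore enters the correlations. For Bnip3 they included Slc39a8 (r = 0.989), which encodes a zinc and manganese transporter, and Asb13 (0.987). Slc39a8 ratios were 0.85, 0.30, 0.76 and 0.11 in cobalt rats and 2.04, 1.33, 1.06 and 0.78 in saline rats at 6, 12, 24 and 48 h. For Ddit4 the nearest were Slc37a1 (r = 0.980), Tymp (0.977) and Myzap (0.976), and for Bnip3l they were Sowaha (0.927), Amigo3 (0.920) and Pla1a (0.913). Car9 was nearest to Ifngr2 (r = 0.965), Rint1 (0.963) and Map6d1 (0.962). Ndrg1 was nearest to Lmx1b (r = 0.983), Plek (0.976) and the autophagy gene Map1lc3b (0.968). Among the members themselves the correlations ran from -0.61 (Bnip3l with Ddit4) to 0.63 (Bnip3 with Ndrg1), and Bnip3 with Bnip3l gave 0.33.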

How the data were processed

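Lung RNA was measured on 8 two-colour arrays, 1 for each of 2 pretreatments and 4 durations. The authors' scanner files give intensity (mean signal and local background per spot) from Agilent Feature Extraction 9.5.1.1, per the file headers. They also give a LogRatio, which per the file headers is a log10 ratio (red divided by green) that the software made from background-subtracted, dye-normalized signals. The authors' deposited series matrix is on a log2 scale with hypoxia on top. This was read from the values, since its correlation with LogRatio was 1 on saline and -1 on cobalt arrays, with slopes of the same size and a median of 0 in each column.

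Signals were corrected with normexp (offset 50) and loess in limma 3.58.1 (R 4.3.3, with the package data.table in version 1.17.8). Control and outlier spots had weight 0. The filter kept the 28440 probes that were well above background on 4 or more of the 8 arrays, in at least 1 channel. The brightest probe stood for a gene (24161 genes). Gene names were updated through the GRCr8 gene annotation. limma's lmFit and eBayes, with a variance trend over mean intensity, fitted a mean per pretreatment (6 residual degrees of freedom). For the time course it also fitted late against early within each pretreatment (4 residual degrees of freedom). P-values were adjusted by Benjamini-Hochberg over all genes.

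The members, lists and comparisons were chosen with earlier results of these data known. Named were the members, up to 4 genes of each list with the lowest p in the average, and the 3 genes most correlated with each member. A gene that this rule selects is not reported here. The markers Des and Actg2 were chosen after their values were seen. Other processing was tried: the log ratio of the software, uncorrected signals, median centring, the series matrix, no filter or a strict filter on dim probes, the mean over probes, no variance trend, a term for each duration, and fits without each array in turn. The fitting script was tested on simulated data. No label states that different arrays come from different animals, and the number of arrays limits the precision. Each group held 1 array, so the only pairing tried was by duration.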

Additional observations from a re-analysis of the deposited data

Results flagged for a closer look

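Ddit4 was flagged because its response to hypoxia differed between the pretreatments in a test of the difference itself. That test called 30.1% of all genes, 12.7% as higher and 17.4% as lower. The cobalt response minus the saline response was 1.19 ± 0.23 on the log2 scale (limma, adjusted p = 0.00448), with 4 of 4 cobalt arrays above 0 and 4 of 4 saline arrays below 0. The ratios of the pretreatments were also without overlap in 31.9% of all genes. With median centring in place of loess the Ddit4 difference was 0.00, where the median of all genes was -0.779. Pretreatment, slide, scan day and dye orientation cannot be told apart in this difference.

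A signal was seen on a probe outside the comparisons. The probe named RGD1565715 in the array files was not counted as a member, since RefSeq lists that name as a synonym of Ankrd37, while the files describe the probe as similar to a low density lipoprotein receptor-related protein binding protein, and Lrp2bp is a neighbouring gene of Ankrd37. Which of these genes the probe reports was not settled here. Its log2 ratios were 0.58, -0.23, 0.03 and -0.02 in cobalt rats and 0.94, 0.79, 0.58 and 0.58 in saline rats at 6, 12, 24 and 48 h. After loess the saline arrays were thus all well above 0, and of the cobalt arrays only the 6 h one was, at the level of the lowest saline arrays. With median centring the ratios ran from -1.13 to -0.21 on cobalt arrays and from 1.02 to 1.64 on saline arrays. In limma's fit over all probes, the average was 0.41 ± 0.09 (adjusted p = 0.00699), the cobalt estimate 0.09 (adjusted p = 0.654), the saline estimate 0.72 (adjusted p = 0.00164) and their difference -0.63 (adjusted p = 0.022). The share of all probes called was not counted. In the fit over genes it was 31.9% in the average, 40.1% in saline rats and 30.1% in the difference. Pretreatment, slide, scan day and dye orientation cannot be told apart in the difference of this probe either.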

How the results depend on the processing

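The rise of Bnip3 in the average was called under all 17 alternatives (1.27 to 1.46, adjusted p 4.29e-05 to 0.000613). Over the 5 members and 6 comparisons, 450 of 500 values under an alternative kept their direction and their side of the threshold. With the sign kept, 12 passed newly and 8 no longer passed. The other 30 changed sign, and some of these also passed newly, such as Bnip3l in saline rats with median centring. Median centring called 19439 genes in cobalt rats (4932 higher and 14507 lower, against 2061 and 2965 with loess) and 19077 in the difference between responses (4123 higher and 14954 lower, against 3065 and 4207), and 11996 higher and 2281 lower in saline rats, against 5262 and 4429. It changed the sign of Bnip3l in saline rats (1.10), of Ddit4 (-0.41) and Car9 (-0.29) in cobalt rats and of Car9 in the late against early average (0.00). The mean over probes changed that of Ndrg1 in saline rats (-0.06). The difference between responses of Car9 was 0.10 with the software's log ratio and the series matrix and 0.01 without background subtraction, and its time course difference was -0.06 with the software's log ratio and the series matrix and -0.08 without background subtraction. Leaving out 1 array gave 5496 to 7529 called genes in the average, 2243 to 5601 in cobalt rats (2243 without the 24 h, 2446 without the 12 h, 3034 without the 6 h and 3306 without the 48 h cobalt array), 7557 to 9543 in saline rats, 5197 to 7285 in the difference, 0 to 3 in late against early and 0 to 32 in its difference. In those fits Car9 ranged from -0.02 to 0.07 in the average, -0.02 to 0.06 in cobalt rats, -0.06 to 0.12 in saline rats, -0.10 to 0.07 in the difference, -0.11 to 0.15 in late against early and -0.25 to 0.28 in its difference. Ndrg1 ranged from -0.04 to 0.08 in late against early, and Bnip3l from -0.08 to 0.35 in its difference. With duration as a factor (a replicate block by duration), 7685 genes were called in the average, 5001 in cobalt rats, 9783 in saline rats and 7222 in the difference, and of the members' calls only that of the Bnip3 difference changed (-0.60, adjusted p = 0.0197). A block on replicate numbers was not possible because each group holds 1 array. Causes were not tested. Each group rests on 1 array, and the 0 h RNA of a pretreatment carries the same label on its 4 arrays, so an error in it would enter all of them.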
